A study of Mus musculus with 6 samples.

Results

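The NR4A, EGR and CD69 activation genes are 7 genes that T cells switch on soon after their antigen receptor is engaged, Nr4a1, Nr4a2, Nr4a3, Egr1, Egr2, Egr3 and Cd69. They were taken by gene symbol, not by measured values, and each matched 1 row of the 41095 genes in a deposited table of FPKM, fragments per kilobase of gene scaled to library size. The series compared 3 libraries of wild-type mouse CD8+ T cells left untreated (control) with 3 libraries of cells exposed to acetate, a short-chain fatty acid, over 48 h. Its dose is taken as 5 mmol/L, although the labels write the unit oddly. In both groups, cells selected positively from spleen were cultured for 72 h with IL-2 (30 U/mL) on plates coated over 24 h with antibodies to CD3 (5 µg/mL) and CD28 (2 µg/mL). Every library thus came from cells under receptor stimulation, and none from resting cells. Culture is given as 72 h for both groups, but the design is worded as before and after acetate. Whether the groups spent equal total time in culture was thus not tested, and nothing states whether libraries of a group came from separate mice. The p-values therefore measure the spread between these libraries, which may be technical.

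The NR4A proteins are orphan nuclear receptors that bind DNA without a known hormone, and in CD8+ T cells they restrain effector genes and favour dysfunction under lasting stimulation. The EGR proteins are zinc finger transcription factors induced through the ERK and calcium pathways, of which EGR2 and EGR3 dampen later receptor signalling. CD69 is a membrane lectin that appears within hours of stimulation and holds cells in tissue by pulling the egress receptor S1PR1 off the surface.

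With acetate, Egr3 rose, Nr4a1 and Cd69 fell, and the other 4 genes did not pass the test. Egr3 was 1.34 times its control level, Nr4a1 0.835 times and Cd69 0.875 times. All 7 genes were tested, since each had a mean of at least 1 FPKM. The 3 genes called, or 42.9% of the 7, stand beside 38.9% of the 10867 genes tested (limma, adjusted p below 0.05). By direction, 1 of 7 was higher against 22.0% of all genes and 2 of 7 were lower against 16.9%. The share called among these genes is thus near the background. Acetate and control values did not overlap for 5 of 7, against 51.9% of all genes. The median log2 difference was -0.08 over the 7 genes and 0.02 over all genes tested. Among all calls 56.6% were higher with acetate, and this share was 36.4% with TPM, the FPKM of each library scaled to a common sum, in place of FPKM and 45.0% with limma voom on reads recovered from the FPKM. The 3 called genes kept their direction in all 15 alternatives run. In bulk samples, fewer cells of a kind and less RNA per cell cannot be told apart.

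Promoter windows are shown for the NR4A genes and Egr2, so that a reader can compare the DNA next to their starts. Of these genes only Nr4a1 passed the test. RefSeq windows of 300 bases, 250 before and 50 after a transcript start on build GRCm38.p6, were used for 4 of the 7 genes, Nr4a1, Nr4a2, Nr4a3 and Egr2, the last with 5 starts. Capitals mark matches, on either strand, to TGACG (the short motif of CREB factors, CGTCA on the other strand), the EGR site (GCGTGGGCG or GCGGGGGCG), the MEF2 site and the CArG box bound by SRF.
Nr4a1, chr15:101266596-101266895, plus strand: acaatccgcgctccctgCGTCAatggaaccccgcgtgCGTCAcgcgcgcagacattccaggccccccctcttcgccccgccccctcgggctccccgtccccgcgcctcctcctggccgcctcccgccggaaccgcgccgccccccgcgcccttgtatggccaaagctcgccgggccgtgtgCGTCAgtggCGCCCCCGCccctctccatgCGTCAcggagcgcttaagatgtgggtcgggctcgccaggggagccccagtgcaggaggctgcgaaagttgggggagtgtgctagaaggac
Nr4a2, chr2:57123954-57124253, minus strand: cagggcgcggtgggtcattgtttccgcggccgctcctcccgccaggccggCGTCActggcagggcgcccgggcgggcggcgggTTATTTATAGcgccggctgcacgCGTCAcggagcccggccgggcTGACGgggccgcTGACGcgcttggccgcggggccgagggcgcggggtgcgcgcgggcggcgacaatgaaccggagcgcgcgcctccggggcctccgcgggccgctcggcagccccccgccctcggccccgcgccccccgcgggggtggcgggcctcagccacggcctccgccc
Nr4a3, chr4:48045055-48045354, plus strand: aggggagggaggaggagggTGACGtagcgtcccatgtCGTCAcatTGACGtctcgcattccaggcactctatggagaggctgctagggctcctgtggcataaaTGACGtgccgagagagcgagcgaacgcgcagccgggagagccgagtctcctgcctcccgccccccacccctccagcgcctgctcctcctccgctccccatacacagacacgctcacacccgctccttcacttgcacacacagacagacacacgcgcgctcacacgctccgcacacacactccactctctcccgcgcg
Egr2, start 3, chr10:67537619-67537918, plus strand: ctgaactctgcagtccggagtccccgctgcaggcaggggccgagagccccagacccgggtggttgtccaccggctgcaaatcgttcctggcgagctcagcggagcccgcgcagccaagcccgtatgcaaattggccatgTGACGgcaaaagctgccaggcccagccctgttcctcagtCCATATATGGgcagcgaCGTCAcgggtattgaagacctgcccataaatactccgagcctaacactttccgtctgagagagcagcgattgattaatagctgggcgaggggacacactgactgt

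Each NR4A window held 4 matches to TGACG, from 233 to 40 bases before the start in Nr4a1, from 200 to 111 in Nr4a2 and from 231 to 147 in Nr4a3. Among 32851 RefSeq windows, from which chromosome 18 with Egr1 was left out, 20.8% held at least 1 such match. In all, 76 windows, 0.231%, held 4 or more, a count made after the NR4A windows had been seen. Whether these matches bear on the levels of Nr4a1 or Nr4a3 was not tested. The EGR site stood 60 bases before the start of Nr4a1 and in 3.47% of windows, and the MEF2 site in Nr4a2 and 3.19% of windows. The CArG box of Egr2 lay 72 bases before the start shown, with 1.63% of windows holding one, and the windows of the first 2 Egr2 starts held no TGACG. The full CRE motif TGACGTCA (1.79% of windows), the NR4A element AAAGGTCA (1.51%) and the AP-1 motif TGANTCA (7.81%) had no match in the 8 windows. Matches to the NFAT core GGAAA (61.3% of windows), the Ets core CCGGAA (14.9%) and the NF-kB site (8.46%) are not capitalised. A match is a string of letters and not a measured binding site.

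Nr4a1 encodes NUR77, the NR4A receptor most used as a reporter of receptor signal strength. It is on chromosome 15 from 107157537 to 107165506, plus strand, in the table's C57BL/6NJ positions. Its control libraries stood at 63.4, 59.8 and 63.7 FPKM and its acetate libraries at 51.1, 49.6 and 55.2 FPKM. Every acetate library was below every control library, and the lowest control was 4.55 FPKM above the highest acetate value. The means were 62.3 ± 2.20 and 52.0 ± 2.89 FPKM (SD, n = 3 per group). The log2(FPKM + 1) difference was -0.26 with a standard error of 0.05 and a 95% interval from -0.37 to -0.14 (limma adjusted p = 0.00602). The fall was called in all 15 alternatives, with adjusted p up to 0.0255.

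Nr4a3 encodes NOR1, which acts redundantly with NUR77 in many cells. The gene is on chromosome 4 from 48142176 to 48183404. Its values were 63.7, 64.2 and 66.2 FPKM in control and 67.0, 64.1 and 61.8 FPKM in acetate libraries. The groups overlapped, with acetate holding both the highest and the lowest library. The means of 64.7 ± 1.33 and 64.3 ± 2.64 FPKM gave a log2 difference of -0.01 (95% interval -0.11 to 0.09, limma adjusted p = 0.868). With 11202 to 15541 reads per library it was the most deeply counted of the 7, so counting error alone would be 1.22% of its level in control and 1.23% in acetate cells if each fragment was counted as its 2 ends.

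Nr4a2 encodes NURR1, the NR4A receptor best known from dopamine neurons. The gene lies on chromosome 2 from 58349927 to 58368669. Control libraries held 11.6, 11.3 and 12.1 FPKM and acetate libraries 11.2, 10.5 and 10.3 FPKM. The groups just failed to overlap, with acetate replicate 1 below control replicate 2 by 0.0088 FPKM. The log2 difference of -0.11 (95% interval -0.23 to -0.00094) had limma adjusted p = 0.101. It passed in 1 alternative, limma voom on recovered reads (adjusted p = 0.0382).

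The summed FPKM of the NR4A genes was 139 ± 3.40 in control and 127 ± 2.65 in acetate libraries (SD, n = 3). Nr4a1 made up 44.2% to 45.7% of that sum in control and 39.5% to 43.4% in acetate libraries, and Nr4a3 45.9% to 47.5% and 48.5% to 51.8%. Nr4a2 was between 8.11% and 8.69% in all 6. The within-library ratio of Nr4a1 to Nr4a3, which does not depend on library scaling, was 0.995, 0.930 and 0.961 in control and 0.763, 0.774 and 0.894 in acetate libraries. Its groups did not overlap (exact permutation p = 0.1, two-sided, the smallest that 3 against 3 allows). Nr4a2 to Nr4a3 also separated, at 0.180 ± 0.00396 and 0.166 ± 0.0024, while Nr4a1 to Nr4a2 overlapped at 5.35 ± 0.114 and 4.88 ± 0.417. These ratios were chosen after the values had been seen.

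**Figure D1:**
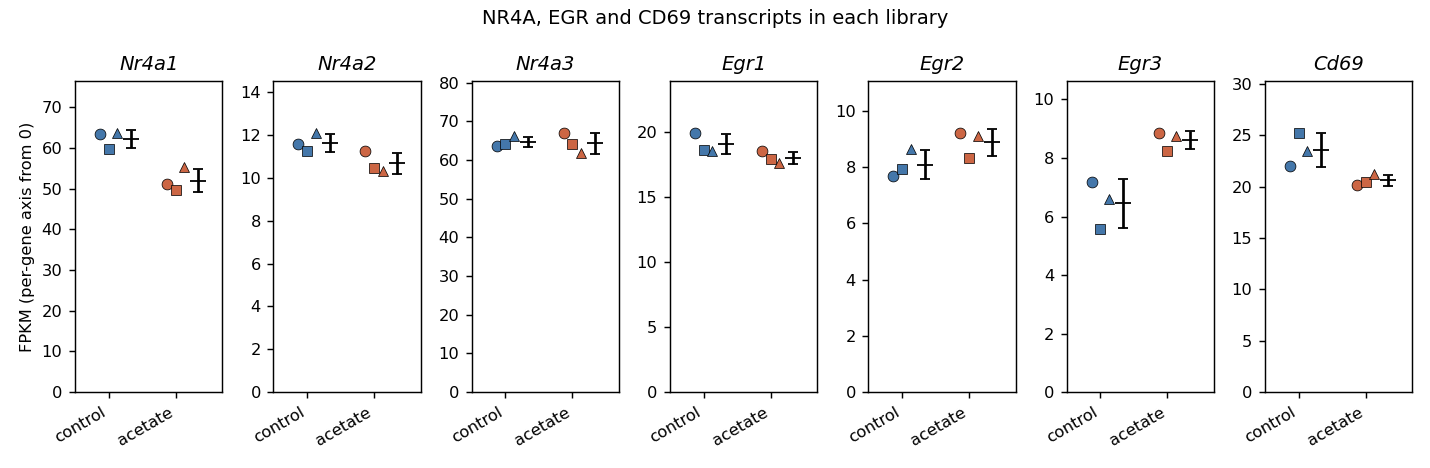
FPKM of each gene in each library, with circles, squares and triangles for replicates 1, 2 and 3 and, beside them, the mean with SD of 3 libraries. Each panel has its own axis from 0, and the groups do not overlap for Nr4a1, Nr4a2, Egr1, Egr3 and Cd69, of which Nr4a1, Egr3 and Cd69 passed the test.

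Egr3 encodes an EGR factor that, with EGR2, induces brakes on receptor signalling. It is on chromosome 14 from 67613921 to 67616633, plus strand. Control libraries held 7.20, 5.56 and 6.60 FPKM and acetate libraries 8.86, 8.25 and 8.74 FPKM. All acetate libraries were higher than all control libraries, and control replicate 2 was the lowest. The means were 6.45 ± 0.828 and 8.62 ± 0.320 FPKM, a log2 difference of 0.37 with a standard error of 0.08 and a 95% interval from 0.18 to 0.57 (limma adjusted p = 0.0102). This difference was larger in size than that of 88.6% of genes tested. Egr3 had the fewest reads of the 7, 285 to 337 per control and 379 to 491 per acetate library. If each fragment was counted as its 2 ends, counting error alone would be 7.92% of the control and 6.86% of the acetate level, against a spread of 12.8% and 3.71%. The rise was called in all 15 alternatives, with adjusted p up to 0.0425, and was 0.29 on the log2 scale without control replicate 2.

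Egr2 encodes KROX20, the closest partner of EGR3 in T cells. The gene lies on chromosome 10 from 69737514 to 69745556. It stood at 7.68, 7.93 and 8.64 FPKM in control and 9.21, 8.32 and 9.10 FPKM in acetate libraries. Acetate replicate 2 fell below control replicate 3, so the groups overlapped. Means of 8.08 ± 0.501 and 8.88 ± 0.488 FPKM gave a log2 difference of 0.12 (95% interval -0.02 to 0.26, limma adjusted p = 0.145). It passed in none of the 15 alternatives.

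Egr1 encodes ZIF268, the immediate-early EGR factor that ERK signalling induces first. It lies on chromosome 18 from 34367625 to 34372758. Its values were 19.9, 18.6 and 18.6 FPKM in control and 18.5, 17.9 and 17.6 FPKM in acetate libraries. The groups did not overlap, but the gap between them was 0.0411 FPKM. The log2 difference was -0.08 (95% interval -0.18 to 0.02, limma adjusted p = 0.199), and no alternative called it.

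Within the EGR genes, Egr3 made up 17.3% to 20.7% of the summed FPKM in control and 24.0% to 24.7% in acetate libraries. Egr1 made up 54.9% to 58.0% and 49.7% to 51.9%, while Egr2 overlapped at 22.1% to 25.6% and 24.1% to 25.7%. The summed FPKM was 33.6 ± 1.35 in control and 35.5 ± 1.06 in acetate libraries (SD, n = 3). The ratio of Egr3 to Egr1 was 0.361, 0.298 and 0.355 in control and 0.478, 0.461 and 0.497 in acetate libraries, with no overlap (exact permutation p = 0.1, the smallest possible). Egr3 to Egr2 was 0.937, 0.701 and 0.763 against 0.962, 0.993 and 0.960, also without overlap. The shares of Nr4a1 and Nr4a3 within the NR4A genes, and of Egr1 and Egr3 within the EGR genes, thus did not overlap between groups. Shares of a sum are tied to each other, so these are not results separate from the levels above. Nr4a3, whose share was higher with acetate, had means of 64.7 and 64.3 FPKM. Of the 6 ratios computed, the 4 without overlap each had an exact permutation p of 0.1, or 0.15 after Benjamini-Hochberg adjustment over the 6.

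**Figure D2:**
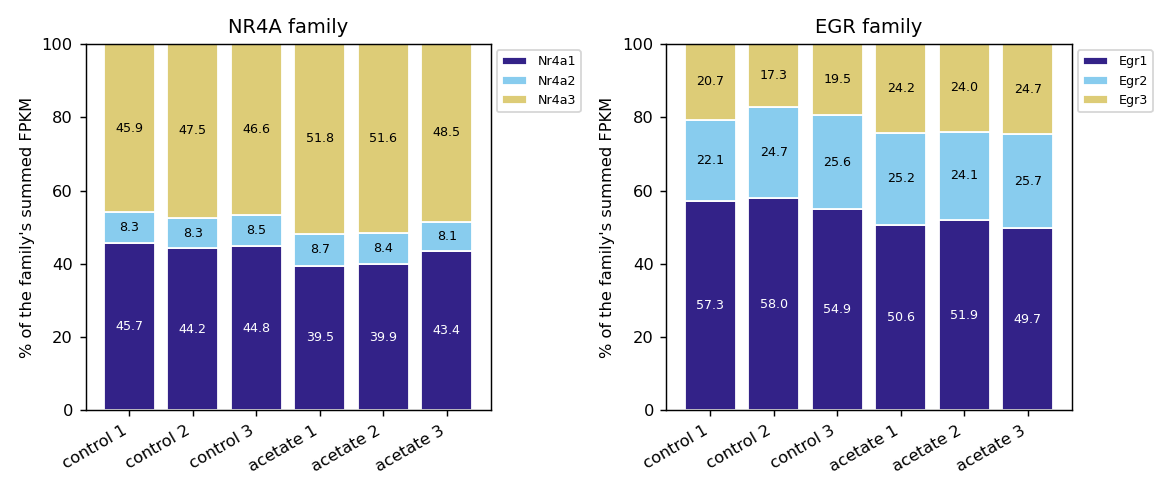
Share of each gene in the summed FPKM of its family, as stacked bars from 0 to 100% for each of the 6 libraries. Nr4a1 takes 44.2% to 45.7% in control and 39.5% to 43.4% in acetate libraries, and Egr3 17.3% to 20.7% and 24.0% to 24.7%.

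Cd69 encodes the early activation antigen and lies on chromosome 6 from 136419164 to 136427275, minus strand. Control libraries held 22.0, 25.2 and 23.4 FPKM and acetate libraries 20.2, 20.5 and 21.2 FPKM. Each acetate library was below each control library, with control replicate 2 the highest. The log2 difference of -0.18 had a standard error of 0.05 and a 95% interval from -0.31 to -0.06 (limma adjusted p = 0.0306). The call was lost in 5 of 15 alternatives: with no filter on low values, and on leaving out control replicate 2, control replicate 3, acetate replicate 1 and acetate replicate 2 (limma adjusted p = 0.0744 to 0.0855). It was kept with TPM, quantile normalization and cyclic loess, where the difference was -0.26, -0.23 and -0.24.

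**Figure D3:**
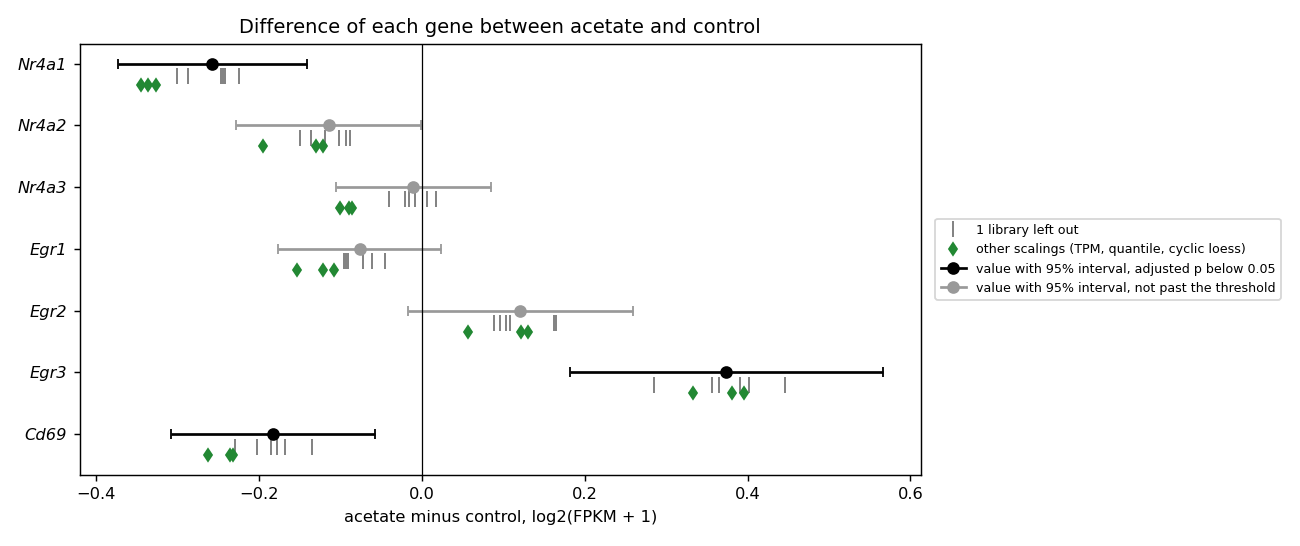
Difference between acetate and control in log2(FPKM + 1) for each gene, with points and bars for the limma value and its 95% interval, ticks for fits with 1 library left out and diamonds for other scalings. Egr3 lies above 0 and Nr4a1 and Cd69 below 0 in every fit shown, while Nr4a3 lies on both sides.

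On the FPKM scale, which is per length, the order of mean levels was the same in both groups, Nr4a3, Nr4a1, Cd69, Egr1, Nr4a2, Egr2 and Egr3. Nr4a3 and Nr4a1 were 1.04-fold apart in control libraries, where the lowest Nr4a3 and the highest Nr4a1 value were 63.74 and 63.69 FPKM, and 1.24-fold apart in acetate libraries. Egr2 and Egr3 did the reverse, 1.25-fold apart in control and 1.03-fold in acetate libraries, where their values overlapped. No other neighbours overlapped in either group. On the mean over 6 libraries, Nr4a3 was above 91.0% of genes tested, Nr4a1 above 89.5%, Cd69 above 71.2% and Egr1 above 66.7%. Nr4a2, Egr2 and Egr3 were in the middle, above 51.5%, 43.7% and 40.3% of genes tested.

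The genes whose log2(FPKM + 1) was most like each gene's over the 6 libraries were found by Pearson correlation among protein-coding genes, as a description. For Nr4a1 they were Fbxl19 (r = 0.994) and Zswim4 (r = 0.992), which fell from 9.30 ± 0.713 to 5.83 ± 0.770 FPKM (adjusted p = 0.00235 by limma). For Egr3 they were Tbrg4 (r = 0.995), which rose from 25.5 ± 1.48 to 28.7 ± 0.204 FPKM (limma adjusted p = 0.0283), and Arhgef7 (r = 0.994). Cd69 was matched by Hsp90b1, an endoplasmic reticulum chaperone gene (r = 0.993), and Tmem203 (r = 0.992). Nr4a2 was matched by Ttf1 and Gna13 (both r = 0.996), Nr4a3 by Ttc3 (r = 0.995) and Zfp518a (r = 0.994), Egr1 by Fam65a (r = 0.993), and Egr2 by Pik3cb (r = 0.990) and Kifap3 (r = 0.988). The 6 points share library and group, and the genes named are among the highest of all protein-coding genes tested. A search over so many genes with 6 points gives high r by itself. These values thus describe likeness in these libraries only.

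The recovered depth was 31098394 to 39140711 reads per library. All 7 markers of CD8 T cells were present, of which 3 were higher with acetate, none was lower and 4 did not pass. For comparison, 22.0% of all genes tested were higher and 16.9% lower. Cd8a was at 308 ± 1.57 and 352 ± 12.3 FPKM (limma adjusted p = 0.00864), while its partner Cd8b1 was at 321 ± 11.8 and 301 ± 10.1 FPKM and Trac at 265 ± 15.4 and 248 ± 6.16 FPKM (limma adjusted p = 0.139 and 0.183). The summed level of the 7 was 1473 to 1531 FPKM in control and 1538 to 1628 in acetate libraries. The 3 CD4 and regulatory T cell markers summed to 8.18 to 9.61 and 9.35 to 10.5 FPKM. Nearly all of it was Cd40lg, which activated CD8 T cells can also make. Cd4 itself, below the filter, was at 0.641 ± 0.119 and 0.944 ± 0.138 FPKM. Its groups did not overlap, and with no filter it was not called (limma adjusted p = 0.148). The 5 B cell markers summed to 16.8 to 18.4 and 16.8 to 18.3 FPKM, nearly all of it Cd79b at 17.1 ± 0.783 and 17.2 ± 0.579 FPKM, with Ms4a1 and Pax5 near 0. The 2 natural killer cell markers in the table, Ncr1 and Klrb1c, summed to at most 0.164 FPKM, and 7 myeloid markers to at most 1.46 and 1.22 FPKM with Itgam at 0. The part of these markers in the results was not tested.

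The NAB co-repressors, which bind EGR1, EGR2 and EGR3 and are themselves induced by EGR factors, did not pass. Nab2 was at 7.12, 7.05 and 6.21 FPKM in control and 7.24, 6.99 and 6.46 FPKM in acetate libraries (limma adjusted p = 0.833). Nab1 was at 21.2 ± 0.271 and 20.8 ± 1.23 FPKM (limma adjusted p = 0.684). Egr4, the fourth family member, held at most 6 reads in any library and was not tested. Thus, of the EGR genes and their co-repressors, Egr3 alone was past the threshold.

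Of 12 genes reported as targets of EGR2 and EGR3 in T cells 11 were tested, and of these 2 were higher, 5 lower and 4 did not pass, at a median log2 difference of -0.09 against 0.02 over all genes tested. The shares over all genes tested were 22.0% higher and 16.9% lower. The lower count was 3 with no filter and on leaving out control replicate 1, control replicate 3, acetate replicate 2 or acetate replicate 3, and the higher count was 1 in most alternatives. Dgka, a diacylglycerol kinase that limits Ras activation, fell from 84.8 ± 1.85 to 63.6 ± 0.868 FPKM (limma adjusted p = 0.00024). Ptpn22, a phosphatase that restrains receptor signalling, fell from 47.3 ± 1.29 to 40.9 ± 1.46 FPKM. Tnfrsf9, which encodes the costimulatory receptor 4-1BB, fell from 439 ± 2.50 to 394 ± 14.2 FPKM (limma adjusted p = 0.0211), lost without the filter, any control library or acetate replicate 2 (adjusted p = 0.0541 to 0.0881). Lag3, an inhibitory receptor gene, rose from 170 ± 3.91 to 195 ± 6.41 FPKM, a call lost with quantile normalization and cyclic loess (limma adjusted p = 0.083 and 0.102).

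Of 11 genes tied to NR4A activity in T cells 6 passed the filter, of which 5 were lower and 1 did not pass, at a median of -0.36. Over all genes tested, 22.0% were higher and 16.9% lower, at a median of 0.02. Klf2, a member of the list below the filter, was at 0.392 ± 0.0816 in control and 1.22 ± 0.135 FPKM in acetate libraries, and with no filter it was the 1 gene of the list that was higher (limma adjusted p = 0.00523). The lowest p belonged to Cd200, which encodes an inhibitory ligand and stood at 69.4, 72.2 and 71.3 FPKM in control and 52.2, 54.4 and 53.6 FPKM in acetate libraries (limma adjusted p = 0.000284). Ctla4, an inhibitory receptor gene, and Bhlhe40, a transcription factor gene, were the next 2. The nuclear receptors that pair with NR4A proteins or bind like sites had 3 of 6 genes past the filter, and these 3 fell, at a median of -0.36. Rxra and Rxrb encode retinoid X receptors, of which RXR alpha forms heterodimers with NUR77 and NURR1, and they fell from 5.31 ± 0.668 to 3.91 ± 0.127 and from 19.0 ± 0.777 to 16.0 ± 1.05 FPKM. The fall of Rxrb (limma adjusted p = 0.0152) was lost without control replicate 1 or 3 (adjusted p = 0.0516 and 0.0518). Rora, an orphan receptor gene, fell from 1.54 ± 0.0778 to 0.897 ± 0.0978 FPKM. Its acetate mean was below 1 FPKM, so it passed the filter only through its control values, and the filter favoured a fall. With a filter of mean 5 FPKM, 1 gene of these receptors was lower.

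Of 29 other immediate-early genes 26 were tested, of which 7 were higher, 8 lower and 11 did not pass, at a median of -0.07. Fosl2, an AP-1 subunit gene, fell from 9.66 ± 0.0519 to 5.92 ± 0.216 FPKM (limma adjusted p = 0.000135). Ppp1r15a, which encodes the stress-induced phosphatase subunit GADD34, fell from 18.3 ± 0.547 to 11.5 ± 0.598 FPKM, and Nfil3, a bZIP repressor gene, from 25.8 ± 1.62 to 16.2 ± 0.625 FPKM. Junb, an AP-1 subunit gene with the highest mean over the 6 libraries, had 174 ± 2.07 FPKM in control and 182 ± 14.0 FPKM in acetate libraries, which did not pass (limma adjusted p = 0.404). These counts stand beside 22.0% higher and 16.9% lower among all genes tested.

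**Figure D4:**
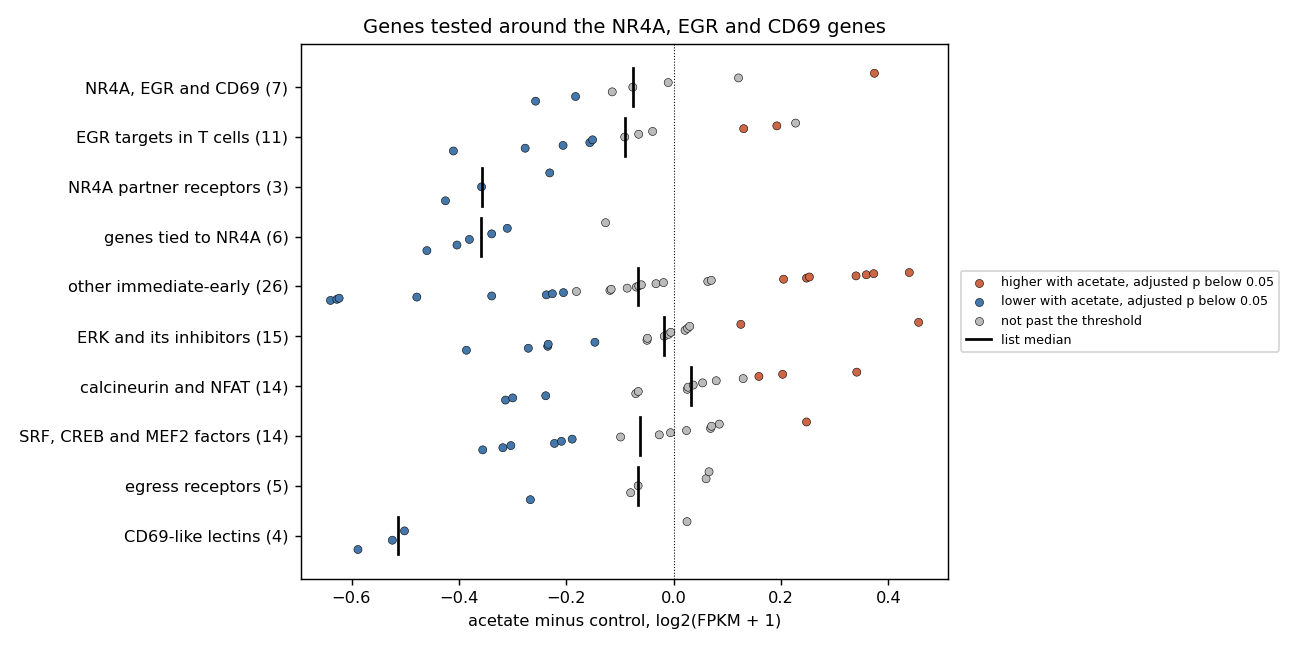
Difference between acetate and control in log2(FPKM + 1) for each tested gene of 10 lists, with the number of tested genes in brackets, colour for the test and a black line for the list median. The 5 called genes tied to NR4A lie below 0, and called immediate-early genes lie on both sides.

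Upstream of these genes, the ERK list of 15 genes had 2 genes higher, 5 lower and 8 not past the threshold. Beside this, 22.0% of all genes tested were higher and 16.9% lower. The lower count was 2 without control replicate 1 or acetate replicate 2, and 3 without control replicate 3 or with no filter. The higher count was 1 in most alternatives. Rasgrp1, which activates Ras downstream of diacylglycerol, rose from 16.6 ± 0.376 to 23.2 ± 0.694 FPKM, and Dusp4, a phosphatase gene that ERK signalling induces, fell from 46.1 ± 0.479 to 35.0 ± 0.551 FPKM (limma adjusted p = 0.000272 and 0.000257). Mapk3, which encodes ERK1, fell from 27.0 ± 1.33 to 22.8 ± 1.14 FPKM, and Dusp5, a nuclear ERK phosphatase gene, was at 92.8 ± 4.64 and 89.6 ± 2.87 FPKM. Dusp5 did not pass (limma adjusted p = 0.45), but was lower with TPM, quantile normalization and cyclic loess (adjusted p = 0.0387, 0.0299 and 0.0204).

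In the calcineurin and NFAT list of 14 genes 3 were higher, 3 lower and 8 did not pass, with 1 higher under quantile normalization and cyclic loess. The background was 22.0% higher and 16.9% lower among all genes tested. Among the catalytic subunit genes of calcineurin, Ppp3cb fell from 26.1 ± 0.445 to 20.8 ± 0.678 FPKM. Ppp3ca, the least abundant of them, rose from 4.52 ± 0.0435 to 5.99 ± 0.0359 FPKM. Ppp3cc, the most abundant and named after its values were seen, fell from 84.6 ± 1.92 to 71.6 ± 3.01 FPKM (limma adjusted p = 0.00408). Rcan3, a calcineurin regulator gene, fell from 10.7 ± 0.207 to 8.52 ± 0.142 FPKM.

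The list of SRF, CREB and MEF2 factors, known to act at promoters of immediate-early genes, also held their partners and cofactors, such as Elk3 and Hdac7. Of its 14 tested genes, 1 was higher and 6 lower. Of the SRF, CREB and MEF2 genes themselves, Srf was higher and Crem lower. Creb1, Atf1, Mef2a and Mef2d, named after their values were seen, did not pass. Among all genes tested, 22.0% were higher and 16.9% lower. Srf rose from 17.6 ± 0.445 to 21.1 ± 0.562 FPKM, while Elk3, a partner of SRF, fell from 25.3 ± 0.262 to 20.3 ± 0.693 FPKM. Crem, which encodes activators and repressors at CRE sites, fell from 27.3 ± 1.88 to 21.1 ± 0.763 FPKM (limma adjusted p = 0.00265). Hdac7, a deacetylase that binds MEF2D and represses Nr4a1 in thymocytes, fell from 50.6 ± 1.02 to 43.7 ± 1.23 FPKM.

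Beside Cd69, S1pr1 encodes the egress receptor that CD69 binds. It stood at 8.72, 8.34 and 9.14 FPKM in control and 7.66, 6.74 and 6.89 FPKM in acetate libraries and fell (limma adjusted p = 0.0106). The fall of S1pr1 was in the same direction as that of Cd69, and it was the only 1 of 5 tested egress genes past the threshold. That threshold was passed by 38.9% of all genes tested. Ccr7, a homing receptor gene, was at 331 ± 12.8 and 316 ± 13.2 FPKM (limma adjusted p = 0.314), and was lower with TPM, quantile normalization, cyclic loess and limma voom (adjusted p = 0.0181, 0.0224, 0.0066 and 0.0401). Of 7 lectin relatives of CD69 4 passed the filter, and 3 fell, against 16.9% lower among all genes tested. These were Klrd1, Klrk1 and Clec2i, the last from 8.31 ± 0.958 to 5.18 ± 0.275 FPKM. Clec2d was at 31.7 ± 2.45 and 32.2 ± 1.13 FPKM (limma adjusted p = 0.767).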

How the data were processed

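The authors deposited FPKM values of 6 RNA sequencing libraries, made by paired-end sequencing of total RNA per the labels' protocols. The tools named are cutadapt 1.18, a read trimmer, and HISAT2 2.1.0, an aligner, with build mm10, per the submitters' processing notes. How reads were counted, with or without strand, is not given in the sources used here. Gene identifiers and positions are those of C57BL/6NJ: 7 of 7 genes lay on the RefSeq GRCm38.p6 chromosome and 0 overlapped the position there. No other table gene overlapped the span of any of the 7. FPKM times length gave whole reads in each library (tolerance 0.01 reads). Low read numbers were more often even than odd, so the ends of a pair may each have been counted.

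Genes averaging at least 1 FPKM across the 6 libraries were tested as log2(FPKM + 1) with limma 3.58.1 in R 4.3.3, with a trend on abundance, two-sided, Benjamini-Hochberg adjustment over 10867 genes and a threshold of 0.05. Fold changes on this scale understate changes of low genes. The fit was also run on simulated reads with far fewer genes changed than were called here, so that run does not test these calls. Replicates of a group differed by more than sampling noise, so each was kept. The genes, lists and tests were chosen with earlier results of these data known. From each list the text names up to 3 genes past the threshold of lowest p and the most abundant, the whole EGR and NAB list, and for each of the 7 genes the 2 most correlated. Some genes that this rule names are not reported here. Other genes are said to be named after their values were seen. Alternatives were another pseudocount, filter, scaling or variance model, a replicate block, leaving out each library, and limma voom on recovered reads, the last added after seeing the data.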

Additional observations from a re-analysis of the deposited data

How the results depend on the processing

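The calls of Nr4a1 and Egr3 were kept in all 15 alternatives, and the number of the 7 genes called was 2 to 4 against 3. Cd69 was lost with no filter (-0.18, adjusted p = 0.077) and ran from -0.23 to -0.13 when 1 library was left out. Nr4a2 gained a call with limma voom (-0.16). Nr4a3, not called in any of the 15, ran from -0.0402 to 0.0180 when 1 library was left out. TPM, quantile normalization and cyclic loess all took it below that range, to -0.1004 with cyclic loess. The size of its difference thus depended on the scaling. Egr1, also never called, was at -0.0761 in the main fit and reached -0.1533 with TPM. The count of genes called, 4229, was 3069 to 3987 with 1 library left out, 3294 with no filter and 4622 with limma voom. Among other genes not called, signs changed for Clec2d with TPM (-0.0498), quantile normalization (-0.0386), cyclic loess (-0.0450) and limma voom (-0.0159) and with 1 library left out (-0.0119 to 0.0857), for Junb with TPM (-0.0122), quantile normalization (-0.0330) and cyclic loess (-0.0386), for Nab2 with TPM (-0.0501), limma voom (-0.0127) and 1 library left out (-0.0349 to 0.0605), and for Nab1 with 1 library left out (-0.0625 to 0.0177). The cause was not tested.

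With replicate number as a block, 3600 genes and 3 of the 7 were called, and no call among the 7 changed. Replicate numbers showed no visible pairing of the libraries. The correlations of deviations from group means over genes were -0.05, 0.03 and -0.04 for equal numbers and -0.03 to 0.06 for unequal numbers. Such small correlations cannot exclude a paired design in which pairs differ little. The planned edgeR and DESeq2 tests on recovered reads were not run, because the deposited values are FPKM. Of methods for counts, only limma voom was run on those reads. Depth limits Egr3 most, with as few as 285 reads, and nothing can be said of Egr4 at no more than 6 reads.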

Other observations

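Klf2, a transcription factor gene known to drive S1pr1 and to be switched off by T cell activation, is in the lists of genes tied to NR4A activity and of egress genes, was below the filter and is named after its values were seen. It was at 0.428, 0.299 and 0.450 FPKM in control and 1.13, 1.38 and 1.15 FPKM in acetate libraries, from a mean of 25.3 and 78.3 reads. Without the filter it was higher with acetate (limma adjusted p = 0.00523), while S1pr1 fell. Fos and Fosb, immediate-early genes named after their values were seen, were low in these cells, at 1.39 ± 0.619 and 1.06 ± 0.119 FPKM and at 0.443 ± 0.0753 and 0.328 ± 0.126 FPKM.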
